A study of Mus musculus with 9 samples.

Results

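The galactose breakdown enzymes are the genes whose products turn galactose into glucose phosphates: galactose mutarotase (Galm), the galactokinases Galk1 and Galk2, galactose-1-phosphate uridylyltransferase (Galt), UDP-glucose pyrophosphorylase (Ugp2) and the phosphoglucomutases Pgm1 and Pgm2. They were chosen by name for their place in the pathway by a rule that uses no measured value, though with earlier results of these data known, and were 7 of the 22322 genes in the expression table. The RNA came from purchased cultured mouse cells named retinal ganglion cells (RGCs) by the study, labelled wild type, in 3 groups of 3 libraries. Normal RGCs received no D-galactose. Aging RGCs were made by adding D-galactose, 30 mg/mL in the study's text, to the culture. Aging RGCs + USCs medium were treated with D-galactose in the same way and then given medium conditioned by urine-derived mesenchymal stem cells (USCs), without the stem cells themselves. Both D-galactose groups had therefore received the sugar that these enzymes process. The libraries of a group came from replicated wells of a culture, so the p-values measure the spread between wells, which may be technical. The length of exposure of the sequenced wells was not found in the sources used here.

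In the Leloir pathway, galactose mutarotase sets the ring form of galactose, galactokinase phosphorylates it, and the uridylyltransferase exchanges galactose 1-phosphate for the glucose 1-phosphate carried by UDP-glucose. The UDP-galactose that results is turned back into UDP-glucose, which is also made from glucose 1-phosphate by Ugp2, and phosphoglucomutase converts glucose 1-phosphate into glucose 6-phosphate for glycolysis. Aldose reductase, encoded in the mouse by Akr1b3, can instead reduce galactose to galactitol, and the loss of galactokinase or uridylyltransferase is known for the build-up of galactitol in the lens of the eye.

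On the mouse build GRCm38, GENCODE placed Galk1 (ENSMUSG00000020766) at chr11:116008457-116012719 on the minus strand, Galk2 (ENSMUSG00000027207) at chr2:125859109-125984299 on the plus strand, and Galt (ENSMUSG00000036073) at chr4:41755228-41758695 on the plus strand. Galm (ENSMUSG00000035473) lies at chr17:80127471-80185101 on the plus strand and Ugp2 (ENSMUSG00000001891) at chr11:21321138-21371201 on the minus strand. Pgm1 (ENSMUSG00000025791) is the gene at chr4:99929414-99987294 and Pgm2 (ENSMUSG00000029171) the gene at chr5:64092950-64128351, both on the plus strand. The mouse symbols of these phosphoglucomutase genes were exchanged in the past, so that older lists give Pgm2 for the chromosome 4 gene and Pgm1 for the chromosome 5 gene. The symbols are used here in their present sense. Pgm1 encodes the main phosphoglucomutase, and Pgm2 encodes an enzyme that acts mainly on pentose phosphates.

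The promoters of Galk1, Pgm1 and Pgm2 are shown because Galk1 encodes the first committed enzyme and because, of the phosphoglucomutase genes, Pgm2 rose and Pgm1 fell with USCs medium against aging RGCs. They are RefSeq windows of up to 250 bases before the transcription start, read from GRCm38.p6 on the strand of the gene, and the Pgm1 window was shortened to 213 bases so that it stops before the GENCODE gene. Capitals mark matches on either strand to 4 short motifs. GGGCGG is the core of a GC box. The CCAAT box is searched by its own name. CACGTG is an E-box. The core of a TATA box is searched as TATAAA.
Galk1, chr11:116012720-116012969, minus strand: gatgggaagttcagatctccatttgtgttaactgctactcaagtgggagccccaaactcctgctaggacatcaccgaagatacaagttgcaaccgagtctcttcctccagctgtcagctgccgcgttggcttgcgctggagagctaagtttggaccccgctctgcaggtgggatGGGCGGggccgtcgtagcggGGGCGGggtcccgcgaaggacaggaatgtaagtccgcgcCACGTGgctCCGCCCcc
Pgm1, chr4:99929201-99929413, plus strand: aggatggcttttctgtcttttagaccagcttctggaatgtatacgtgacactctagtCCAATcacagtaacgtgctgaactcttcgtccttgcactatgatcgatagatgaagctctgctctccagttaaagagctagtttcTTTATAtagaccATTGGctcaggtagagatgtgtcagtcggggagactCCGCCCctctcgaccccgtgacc
Pgm2, chr5:64092689-64092938, plus strand: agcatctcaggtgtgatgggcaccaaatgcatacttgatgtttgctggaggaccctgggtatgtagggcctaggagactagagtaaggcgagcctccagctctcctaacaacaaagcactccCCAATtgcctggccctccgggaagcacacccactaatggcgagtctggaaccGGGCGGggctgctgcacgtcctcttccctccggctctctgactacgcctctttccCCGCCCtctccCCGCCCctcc

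The Galk1 window held 3 matches to GGGCGG and 1 to CACGTG. The Pgm1 window held 1 match to GGGCGG, 2 to CCAAT and 1 to TATAAA, and the Pgm2 window 3 to GGGCGG and 1 to CCAAT, with no match overlapping another. Of 32851 RefSeq promoter windows of 250 bases, 32.7% held GGGCGG, 33.8% CCAAT, 6.02% CACGTG and 12.4% TATAAA. The matches describe the letters only.

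The libraries held 18189610 to 22342283 expected counts, with a count for 13876 to 14339 genes, and 12145 genes (54.4%) passed the low-count filter, all 7 enzymes among them. The label of retinal ganglion cells found little support in marker genes: 5 of 13 ganglion cell markers reached 1 FPKM in any library, Pou4f2 and Pou4f3 were listed at 0 in all 9, and Thy1 and Slc17a6 did not exceed 0.03 and 0.05 FPKM. Rbpms (21.9 to 33.1 FPKM) and Isl1 (4.62 to 9.36 FPKM) were present. The epithelial and mesenchymal lists were mixed too. The keratins Krt8, Krt18 and Krt19 stood at 206 to 361, 175 to 244 and 148 to 244 FPKM. Epcam, however, stood at 0.72 to 1.6 FPKM and Cdh1 did not exceed 0.05. Among mesenchymal markers, Vim stood at 778 to 940 FPKM and Col3a1 at 46.3 to 104, while Acta2 and Tagln did not exceed 0.38 and 0.4. The cells are therefore named here as the study named them. The summed FPKM of the ganglion cell markers ranged from 66.4 to 68.6 in the normal libraries, 47.5 to 51.2 in the aging ones and 47.3 to 52.1 in those with USCs medium. Members of that list moved in opposite directions, with Tubb3 at 1.23 to 1.71 FPKM in aging and 10.4 to 11.4 in medium libraries, and Nefl at 11.01 to 12.4 and 4.55 to 5.16. For 10 macrophage markers, 5 of which reached 1 FPKM, the ranges of the sum in the same order of groups were 44.7 to 54.4, 35.8 to 39.6 and 23.6 to 39.8. Cd68 made up most of that sum and did not fall in aging libraries, at 33.4 to 35.5 FPKM against 30.3 to 35.8 in normal ones. Lyz2, in contrast, ranged from 7.95 to 17.8 FPKM in normal and from 0.91 to 4.93 in aging libraries. C1qa, C1qb and C1qc were listed at 0 in all aging libraries, but lay near the floor throughout and did not exceed 0.86 FPKM in any library. Medium replicate 3 lay apart from the other medium libraries in these markers, with Lyz2 at 9.05 FPKM against 1.68 and 0.72. Without it, 5 enzymes were called with USCs medium against aging RGCs and 3 against normal RGCs, compared with 5 and 2 with it. Whether a shift in cell make-up plays a part in the enzyme values was not tested, and in these bulk samples fewer cells of a type and less RNA per cell cannot be told apart.

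Levels of different genes were compared in FPKM (fragments scaled by transcript length and by library size), which is per length. In normal RGCs, Galk1 (mean 70.4 ± 0.838 FPKM, SD, n = 3) and Pgm1 (70.4 ± 1.40) led and their values overlapped. Ugp2 followed at 30.6 ± 0.633 FPKM, then Galk2 at 21.1 ± 2.00 and Pgm2 at 20.9 ± 0.743, whose values also overlapped. Galt was much lower at 4.66 ± 0.231 FPKM and Galm lowest at 0.42 ± 0.104. The middle enzyme of the pathway, the uridylyltransferase, was thus measured far below the kinase before it: Galk1 FPKM over Galt FPKM was 15.1 ± 0.853 in normal RGCs, 12.3 ± 1.21 in aging RGCs and 14.2 ± 2.64 with USCs medium.

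In aging RGCs the order was Pgm1 (87.0 ± 1.81 FPKM), Galk1 (59.1 ± 0.964), Ugp2 (26.5 ± 0.90), Galk2 (22.04 ± 1.77), Pgm2 (19.7 ± 0.477), Galt (4.85 ± 0.575) and Galm (0.617 ± 0.0862), with no overlap between neighbours. With USCs medium, Galk1 (70.6 ± 3.93 FPKM) and Pgm1 (68.9 ± 2.09) overlapped at the top again, and Pgm2 (25.7 ± 0.206) stood above Galk2 (18.1 ± 0.745). Over the 3 groups, 15 of 18 pairs of neighbours in the order did not overlap. In aging RGCs, however, the lowest Galk2 value of 20.04 FPKM lay barely above the highest Pgm2 value of 20.03. Galk2 levels in FPKM carried an extra uncertainty, since the transcript length implied by its count and FPKM differed by 13.8% between libraries, against 0.0125% for Galk1 and 0.0161% for Pgm1.

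**Figure D1:**
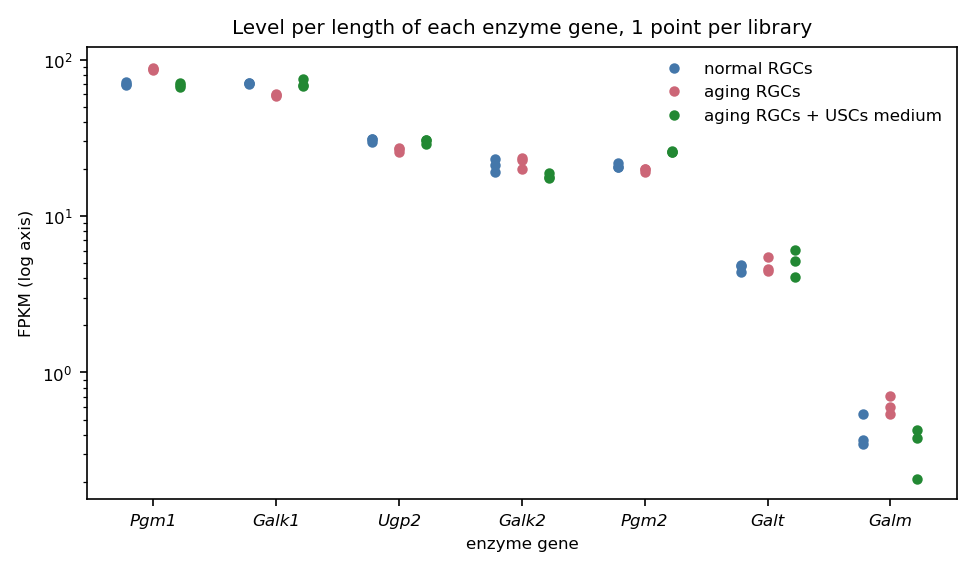
Level of each enzyme gene in FPKM on a log axis, with 1 point per library coloured by group. Pgm1 and Galk1 lie at the top between 58.1 and 88.9 FPKM, and Galm lies at the bottom between 0.21 and 0.71 FPKM.

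The first comparison, aging RGCs vs normal RGCs, asked which genes differ after D-galactose. Of the 7 enzymes, Pgm1 rose by 25.5%, Galk1 fell by 14.8% and Ugp2 fell by 13.9%, while Galm, Galk2, Galt and Pgm2 did not pass the test. Thus 3 of 7 were called at an adjusted p under 0.05 by the quasi-likelihood test of edgeR, adjusted over all genes tested by the Benjamini-Hochberg procedure, beside 46.5% of all genes tested. By direction, 1 rose (23.6% of all genes did) and 2 fell (23.0%). The enzymes' share lay near that of all genes. None reached an absolute log2 fold change of 1, as 2.67% of all genes did, and their median log2 fold change was 0.09, against 0.0018 over all genes tested. The TMM CPM values (library-scaled counts, the scale of the tests) did not overlap between the groups for 5 of the 7, beside 53.0% of all genes.

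The second comparison, aging RGCs + USCs medium vs aging RGCs, set cells given the conditioned medium beside cells without it. The study grew its USCs in a special medium for these cells, and no group received that medium unconditioned. Differences due to the base medium and to its conditioning therefore cannot be told apart, here or in the last comparison. Pgm2 rose by 36.8%, Galk1 by 26.1% and Ugp2 by 22.6%, whereas Pgm1 fell by 16.3% and Galk2 fell by 13.7%. These are 5 of 7 called, beside 53.1% of all genes tested, with 3 that rose (27.1% of all genes) and 2 that fell (26.0%). Without scaling factors between libraries, 35.8% of all calls were increases instead of 51.1%, and 3 enzymes rose and 3 fell. The median log2 fold change of the enzymes was 0.14, against -0.0067 over all genes. None reached an absolute log2 fold change of 1, beside 5.45% of all genes. TMM CPM values did not overlap for 6 of the 7, beside 59.8% of all genes.

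The last comparison, aging RGCs + USCs medium vs normal RGCs, set the cells given both treatments beside untreated ones. Pgm2 rose by 29.5% and Galk1 by 7.51%, so that 2 of 7 were called, beside 60.5% of all genes tested, both as increases (30.6% of all genes rose and 29.9% fell). Without scaling factors, 34.7% of all calls were increases instead of 50.6%, and 1 enzyme rose (Pgm2) and 1 fell (Galk2). The median log2 fold change of the enzymes was 0.08, against -0.0127 over all genes, and none reached an absolute value of 1, beside 6.75% of all genes. TMM CPM values did not overlap for 3 of the 7, beside 63.8% of all genes. The comparisons share libraries in pairs, so that a value of an aging library enters both the first and the second, and their values stand here side by side only.

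**Figure D2:**
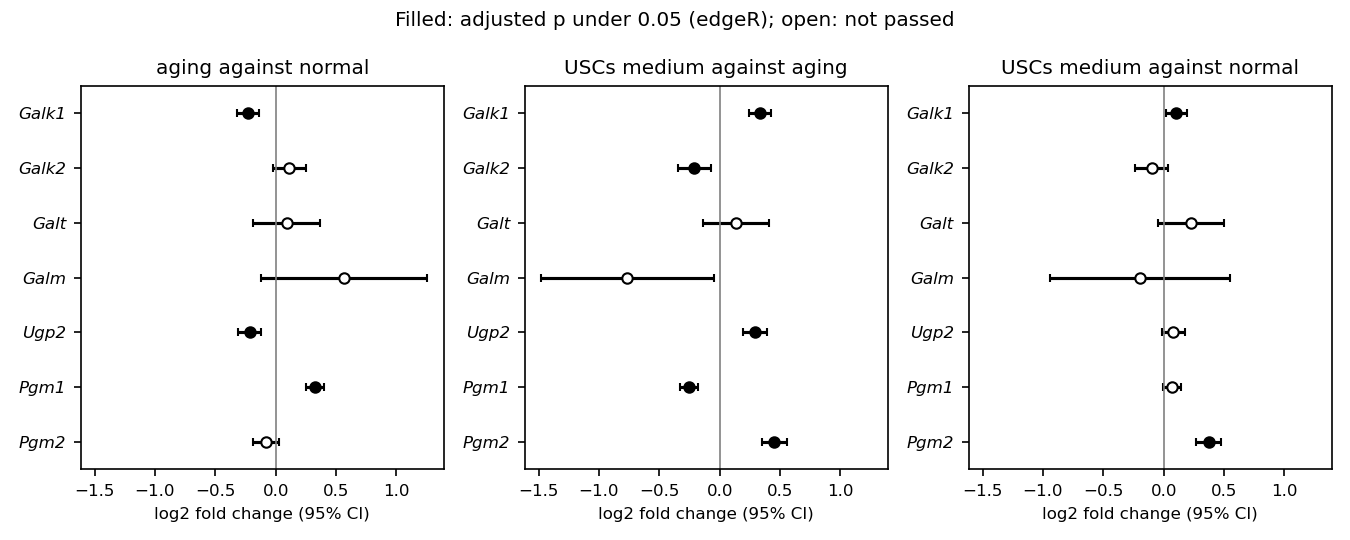
Log2 fold change of each enzyme gene with its 95% confidence interval in the 3 comparisons, from edgeR. Filled points passed an adjusted p of 0.05 and open points did not. Galk1 and Ugp2 lie left of 0 in aging against normal and right of 0 in USCs medium against aging, and Pgm1 lies the other way round.

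Galm, the mutarotase that prepares galactose for the kinase, was close to the limit of detection. Its expected counts were 28, 17 and 16 in normal RGCs, 30, 24 and 27 in aging RGCs and 18, 21 and 10 with USCs medium. In TMM CPM, the aging libraries lay above those of both other groups, which overlapped with each other. The gap to normal RGCs was narrow, with 1.24 in aging replicate 2 against 1.21 in normal replicate 1. In FPKM these libraries tied at 0.54. The log2 fold change was 0.57 ± 0.336 (SE) in aging vs normal RGCs, adjusted p = 0.172 by edgeR, with a 95% interval of -8.11% to 139%. With USCs medium against aging RGCs it was -0.76 ± 0.349, adjusted p = 0.0663 by edgeR, so neither difference passed the test at this depth. The latter did under 4 of 19 alternatives. Its adjusted p was 0.0424 in edgeR without scaling factors and 0.0321 with edgeR's likelihood ratio test. With limma on log2(FPKM + 1) and log2(FPKM + 0.1) it was 0.0243 and 0.0304. Between USCs medium and normal RGCs the value was -0.20, adjusted p = 0.659 by edgeR.

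Galk1, the galactokinase proper, stood at 96.2, 97.2 and 95.5 TMM CPM in normal RGCs, at 83.0, 82.4 and 80.9 in aging RGCs and at 99.4, 110.3 and 101 with USCs medium. All aging libraries lay below all others, and the medium libraries lay above the normal ones by a narrower gap. The log2 fold change in aging vs normal RGCs was -0.23 ± 0.0441 (SE), a 95% interval of -19.9% to -9.27%, with an adjusted p of 8.65e-05 by edgeR. With USCs medium against aging RGCs it was 0.34 ± 0.0441, an interval of 18.5% to 34.3%, with an adjusted p of 2.79e-07 by edgeR. Each of these calls held under all 19 alternatives.

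Against normal RGCs, the higher Galk1 level with USCs medium was a small difference that depended on scaling. Its log2 fold change was 0.10 ± 0.0431 (SE), adjusted p = 0.038 by edgeR. Without scaling factors the value was 0.00395 with an adjusted p of 0.942, and without medium replicate 2, the highest library, it was 0.06 with an adjusted p of 0.293. In FPKM the group means were 70.6 and 70.4.

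Galk2, which is named for galactokinase but acts mainly on N-acetylgalactosamine, measured 38.4, 32.7 and 37.2 TMM CPM in normal RGCs, 40.9, 35.9 and 40.5 in aging RGCs and 34.1, 32.9 and 34.2 with USCs medium. Normal and aging libraries overlapped, and so did normal and medium libraries, whereas every medium library lay below every aging library. In aging vs normal RGCs the log2 fold change of 0.11 did not pass the test (adjusted p = 0.16 by edgeR, interval -1.44% to 18.9%). It was 0.045 without normal replicate 2 and 0.17 without aging replicate 2, where the adjusted p was 0.056. With USCs medium against aging RGCs it fell, by 0.21 ± 0.067 (SE) on the log2 scale, adjusted p = 0.00904 by edgeR. Without aging replicate 1 the adjusted p was 0.0539. Against normal RGCs the value of -0.10 did not pass (adjusted p = 0.211 by edgeR), whereas without scaling factors it was -0.20 with an adjusted p of 0.0127. Galk2 shares 31 exon bases, 0.509% of its own, with Cops2 on the other strand, a gene with 65325 summed counts beside 6560 for Galk2. As a ratio, on which no test was made, Galk1 FPKM over Galk2 FPKM was 3.36 ± 0.357 in normal, 2.69 ± 0.243 in aging and 3.91 ± 0.288 in medium-treated cells (SD, n = 3), where the aging values lay below all others and the normal and medium values overlapped.

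Galt, the uridylyltransferase whose loss causes classic galactosemia in people, gave 6.97, 7.61 and 7.85 TMM CPM in normal RGCs, 9.03, 7.52 and 7.34 in aging RGCs and 7.19, 8.78 and 10.2 with USCs medium. The groups overlapped in every pair. The log2 fold changes of 0.09 (interval -12.1% to 29.1%) and 0.14 (interval -9.13% to 32.9%) in aging vs normal RGCs and in USCs medium vs aging RGCs had adjusted p-values of 0.613 and 0.41 by edgeR. In USCs medium vs normal RGCs it was 0.23, adjusted p = 0.142, or 0.35 with an adjusted p of 0.033 without medium replicate 1. Changes smaller than these intervals could not be seen at 140 to 200 counts per library.

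Ugp2, which makes the UDP-glucose that Galt consumes, measured 67.0, 71.1 and 70.0 TMM CPM in normal RGCs, 61.2, 60.6 and 57.3 in aging RGCs and 75.1, 73.2 and 71.2 with USCs medium. The aging libraries lay below all others, as for Galk1. The log2 fold change was -0.22 ± 0.0478 (SE) in aging vs normal RGCs, with an adjusted p of 0.000458 by edgeR and an interval of -19.6% to -7.89%. It was 0.29 ± 0.0478 with USCs medium against aging RGCs, with an adjusted p of 7.71e-06 by edgeR and an interval of 14.6% to 31.2%. Between USCs medium and normal RGCs the difference of 0.08 on the log2 scale did not pass (adjusted p = 0.153 by edgeR) and was -0.0227 without scaling factors.

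**Figure D3:**
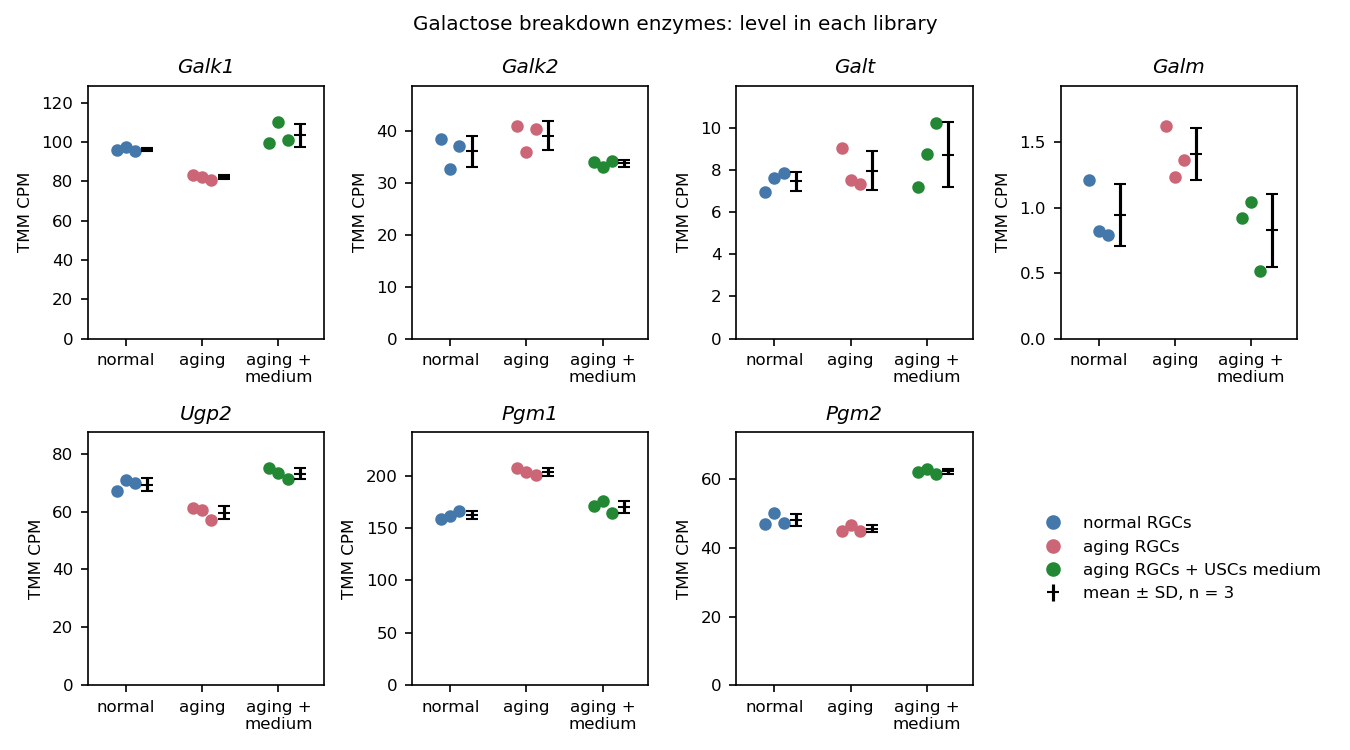
Level of each enzyme gene in TMM CPM, on axes that start at 0, with 1 point per library and, beside them, the mean ± SD of 3 libraries in black. Galk1 and Ugp2 are lowest and Pgm1 highest in the aging libraries, and Pgm2 is highest with USCs medium, between 61.7 and 63.2 TMM CPM.

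Pgm1, the main phosphoglucomutase at the exit of the pathway, measured 159, 162 and 167 TMM CPM in normal RGCs, 207, 203 and 200.3 in aging RGCs and 171, 176 and 164 with USCs medium. The aging libraries lay above all others, and the normal and medium libraries overlapped. The log2 fold change was 0.33 ± 0.0362 (SE) in aging vs normal RGCs, with an adjusted p of 1.94e-08 by edgeR and an interval of 19.2% to 32.1%. That is larger in absolute size than the change of 73.2% of all genes tested. With USCs medium against aging RGCs it was -0.26 ± 0.0363, with an adjusted p of 8.81e-07 by edgeR and an interval of -20.5% to -11.9%.

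Between USCs medium and normal RGCs, the Pgm1 log2 fold change of 0.07 did not pass the test (adjusted p = 0.095 by edgeR) and was -0.0295 without scaling factors. Without medium replicate 3 it passed, at 0.0965 with an adjusted p of 0.0451. Pgm1 shares 398 exon bases, 13.6% of its own, with Itgb3bp on the other strand, and whether the counting used strand was not found in the sources used here. Itgb3bp had 112 to 148 counts per library beside 3211 to 3955 for Pgm1, and its own log2 fold change in aging vs normal RGCs was 0.17, adjusted p = 0.361 by edgeR.

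Pgm2, the phosphoglucomutase gene on chromosome 5, measured 47.1, 50.2 and 47.4 TMM CPM in normal RGCs, 45.0, 46.8 and 45.0 in aging RGCs and 62.3, 63.2 and 61.7 with USCs medium. The medium libraries lay well above all others. Aging libraries lay just below normal ones, but the log2 fold change of -0.08 did not pass the test (adjusted p = 0.215 by edgeR, interval -12.0% to 1.83%). With USCs medium the log2 fold change was 0.45 ± 0.0506 (SE) against aging RGCs, adjusted p = 1.64e-08 by edgeR, with an interval of 27.3% to 47.0%. Against normal RGCs it was 0.37 ± 0.0497, adjusted p = 2.36e-07 by edgeR, with an interval of 20.6% to 38.9%. These were larger in absolute size than the changes of 79.0% and 66.2% of all genes tested.

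The balance between the phosphoglucomutase genes was described by the Pgm1 share. Pgm1 made up 77.1%, 76.3% and 77.9% of the summed Pgm1 and Pgm2 FPKM in normal RGCs, 81.6%, 81.3% and 81.6% in aging RGCs and 73.0%, 73.3% and 72.1% with USCs medium. The groups did not overlap, with means of 77.1% ± 0.784, 81.5% ± 0.202 and 72.8% ± 0.627 (SD, n = 3). No test was made of this share.

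Genes of 7 linked steps were listed beside the enzymes, 58 in all, of which 51 passed the low-count filter. Pygl, Pgm5, Cryl1, Slc2a4, Slc2a12, Slc5a1 and Hk3 did not. In aging vs normal RGCs 13 of the 51 rose and 18 fell, beside 23.6% and 23.0% of all genes. With USCs medium against aging RGCs 12 rose and 21 fell, beside 27.1% and 26.0%, and against normal RGCs 11 rose and 20 fell, beside 30.6% and 29.9%. With a log2 fold change of at least 0.5 in either direction as well, 5, 8 and 7 linked genes were called in that order, beside 10.5%, 15.1% and 19.8% of all genes. The median log2 fold changes of the linked genes were -0.06, -0.02 and -0.09.

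Among 9 genes that interconvert or use UDP-glucose and UDP-galactose, 2 rose and 2 fell in aging vs normal RGCs. Of all genes tested, 23.6% rose and 23.0% fell there. With USCs medium against aging RGCs, 4 of the 9 rose and 3 fell, beside 27.1% and 26.0% of all genes. Against normal RGCs, 4 rose and 2 fell, beside 30.6% and 29.9%. Slc35a2, the carrier that brings UDP-galactose into the Golgi, did not pass the test in any comparison, with log2 fold changes of -0.16, -0.02 and -0.18 and adjusted p-values of 0.157, 0.845 and 0.0824 by edgeR. Against normal RGCs, the value with USCs medium passed without scaling factors (-0.28, adjusted p = 0.00808), with upper-quartile factors (-0.22, adjusted p = 0.0372) and without normal replicate 3 (-0.25, adjusted p = 0.0247).

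Among 8 genes of the UDP-N-acetylhexosamine pathway, 1 rose and 3 fell in aging vs normal RGCs, beside 23.6% and 23.0% of all genes tested. With USCs medium against aging RGCs, 5 rose and 2 fell, beside 27.1% and 26.0% of all genes. Against normal RGCs, 3 rose and 2 fell, beside 30.6% and 29.9%. Gnpnat1, the glucosamine-phosphate acetyltransferase, fell by 0.61 on the log2 scale and then stood 0.62 higher with USCs medium, with adjusted p-values of 1.32e-09 and 7.17e-10 by edgeR. Its TMM CPM were 65.1, 76.0 and 65.2, then 46.6, 44.0 and 44.7, then 65.7, 72.0 and 70.0 in normal, aging and medium libraries, and normal and medium values overlapped. Uap1l1, a relative of the UDP-N-acetylglucosamine pyrophosphorylase, went the other way, with log2 fold changes of 0.78 and -0.87 and adjusted p-values of 3.14e-09 and 4.1e-10. Gfpt2, an enzyme that makes glucosamine 6-phosphate, was low, with a mean of 2.00 TMM CPM in normal, 1.35 in aging and 6.29 in medium-treated cells, and its log2 fold change of 2.22 ± 0.228 (SE) with USCs medium against aging RGCs had an adjusted p of 3.49e-09 by edgeR. Against normal RGCs the Gfpt2 value was 1.64.

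The other phosphoglucomutase genes that passed the filter were Pgm3 and Pgm2l1. Pgm3, which works on N-acetylglucosamine phosphate, gave a log2 fold change of -0.19 in aging vs normal RGCs with an adjusted p of 0.05 after rounding, just inside the threshold in edgeR. That call was lost under 13 of 19 alternatives. Pgm3 shares 1270 exon bases, 28.3% of its own, with Dop1a on the other strand, which had 7678 summed counts over the 9 libraries beside 3568 for Pgm3. Its values in the other comparisons were 0.16 and -0.03, adjusted p = 0.0937 and 0.758.

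Of 7 genes for galactose reduction and polyols, 3 rose and 3 fell in aging vs normal RGCs, beside 23.6% and 23.0% of all genes. With USCs medium against aging RGCs, none rose and 4 fell, beside 27.1% and 26.0% of all genes. Against normal RGCs, 1 rose and 4 fell, beside 30.6% and 29.9%. Akr1b3, the aldose reductase that forms galactitol, measured 305, 194 and 283 TMM CPM in normal RGCs, 188, 178 and 183 in aging RGCs and 193, 199 and 196 with USCs medium. Normal replicate 2 lay apart from the other normal libraries and close to the D-galactose groups. The log2 fold change in aging vs normal RGCs was -0.51 ± 0.0833 (SE), adjusted p = 9.93e-06 by edgeR, and it ranged from -0.69 without normal replicate 2 to -0.39 without normal replicate 1. Against normal RGCs the USCs medium value was -0.41, adjusted p = 9.09e-05 by edgeR. Against aging RGCs it was 0.10, adjusted p = 0.338 by edgeR, though in TMM CPM every medium library lay above every aging library. This difference passed in edgeR under 3 of 19 alternatives. The adjusted p was 0.0154 without normal replicate 2, 0.0157 with no low-count filter and 0.0130 with only the groups compared.

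Sord, sorbitol dehydrogenase, which acts after aldose reductase on glucose, fell in each comparison, by 0.21, 0.77 and 0.98 on the log2 scale, with adjusted p-values of 0.0063, 1.67e-10 and 3.96e-13 by edgeR. Dcxr, a xylulose and dicarbonyl reductase, gave log2 fold changes of 0.46, -0.65 and -0.20, of which the last did not pass the test (adjusted p = 0.401 by edgeR).

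Of 9 genes for hexose uptake, phosphorylation and the use of hexose 6-phosphates, none rose and 7 fell in aging vs normal RGCs. The shares of all genes tested were 23.6% and 23.0%. With USCs medium, 2 rose and 3 fell against aging RGCs (27.1% and 26.0% of all genes), and 1 rose and 7 fell against normal RGCs (30.6% and 29.9%). The 2 that rose against aging RGCs, H6pd among them, encode dehydrogenases of hexose 6-phosphates. H6pd was also the 1 that rose against normal RGCs, so no gene for uptake or phosphorylation rose in any comparison. The 7 that fell after D-galactose included the glucose transporter genes Slc2a1, Slc2a8 and Slc2a10, with log2 fold changes of -0.33, -0.64 and -1.07 and adjusted p-values of 1.4e-09, 0.00105 and 0.00127 by edgeR. Slc2a1 was the most abundant of these, at 423, 441 and 436 TMM CPM in normal, 335, 350 and 348 in aging and 290, 298 and 291 in medium libraries, where no groups overlapped. H6pd, the hexose-6-phosphate dehydrogenase of the endoplasmic reticulum, fell by 0.20 and then stood 0.64 higher with USCs medium, adjusted p = 0.000118 and 3.58e-14. Against normal RGCs the medium values of Slc2a1, Slc2a8 and Slc2a10 were -0.56, -1.02 and -1.09. Slc2a3 was called there too, at -1.24 with an adjusted p of 0.0312 by edgeR. That call was lost under 6 of the 18 alternatives that gave a value. Slc2a3 lay near the floor, with 16, 14 and 11 expected counts in normal and 5, 4 and 7 in medium libraries. Slc2a10 had 79, 61 and 47 counts in normal, 27, 25 and 28 in aging and 29, 19 and 33 in medium libraries. The Slc2a10 value in aging vs normal RGCs ranged from -1.21 to -0.40 over 19 alternatives, and the call held in each.

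Of 7 genes for the lysosomal breakdown of galactose-bearing molecules, 4 rose and none fell in aging vs normal RGCs, beside 23.6% and 23.0% of all genes. The 4 that rose included Ctsa and Neu1, whose products do not themselves release galactose. With USCs medium, 1 rose and 5 fell against aging RGCs (27.1% and 26.0% of all genes), and 1 rose and 3 fell against normal RGCs (30.6% and 29.9%). Glb1, the lysosomal beta-galactosidase, measured 59.9, 57.7 and 58.4 TMM CPM in normal RGCs, 60.4, 54.6 and 63.0 in aging RGCs and 42.4, 44.1 and 43.8 with USCs medium. Its log2 fold change of 0.02 in aging vs normal RGCs did not pass (adjusted p = 0.813 by edgeR, interval -6.13% to 9.14%) and was -0.00455 without scaling factors, whereas with USCs medium it fell by 0.45 against aging RGCs, adjusted p = 7.9e-08. Ctsa, the protective protein that holds Glb1 and the sialidase Neu1 in a complex, gave 0.50 and -0.55 in these comparisons, adjusted p = 1.41e-11 and 1.69e-12, and Neu1 gave 0.30 and -0.63, adjusted p = 0.00248 and 2.68e-07.

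**Figure D4:**
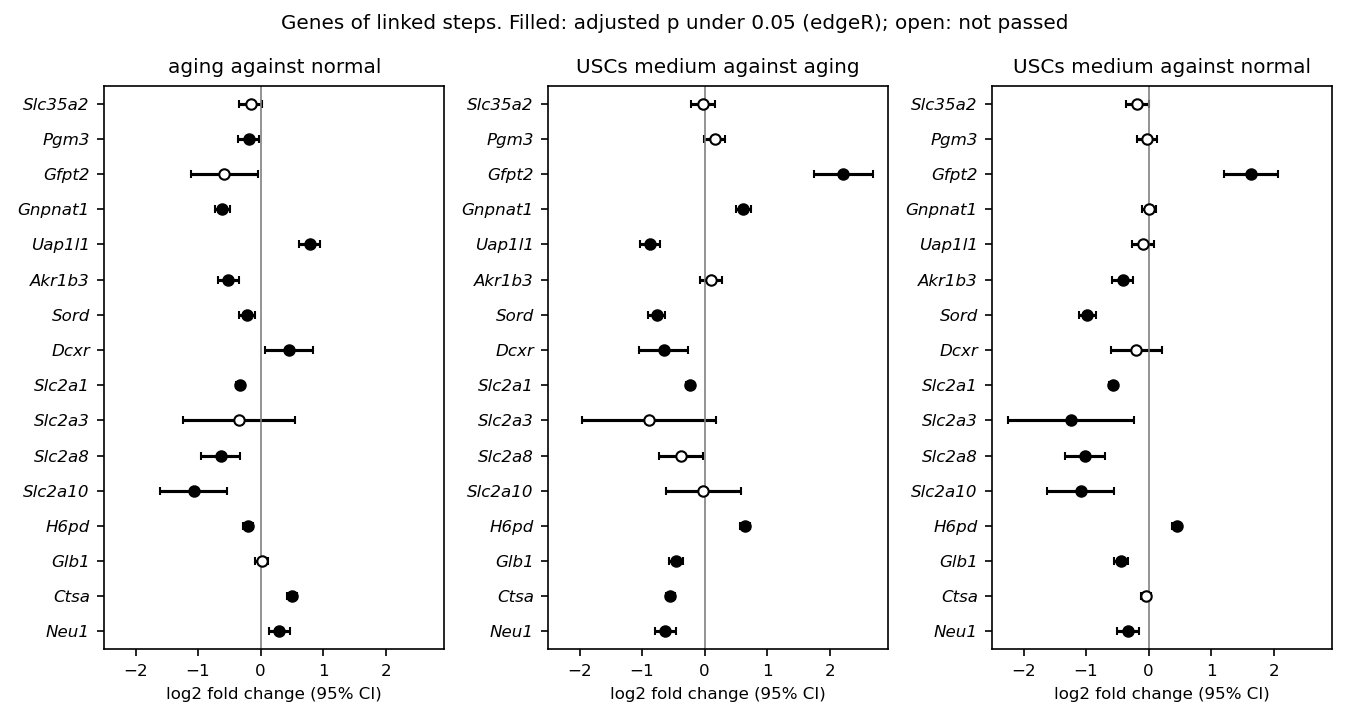
Log2 fold change with its 95% confidence interval of 16 genes from the linked steps, from edgeR, in the 3 comparisons. Filled points passed an adjusted p of 0.05 and open points did not. Gfpt2 lies farthest right in both comparisons of USCs medium, and Slc2a10 farthest left in aging against normal at -1.07.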

How the data were processed

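RNA-seq of 9 libraries (3 groups of 3) was used. The RNA was total RNA extracted with Trizol, and mRNA was selected by oligo(dT), per the labels. The authors deposited an expected count and an FPKM value per gene and library, on build mm10 per the submitters' processing notes; for the aligner and the counter, the entry is not given in the sources used here. Of the deposited expected counts, 6.92% to 7.38% per library were not whole, and all were rounded to whole numbers. Library totals of 18189610 to 22342283 set the counting precision, and the number of libraries limits it further.

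All 12145 genes passing edgeR's filterByExpr were fitted with 1 mean per group over the 9 libraries, TMM factors (0.956 to 1.03) and the quasi-likelihood test, with Benjamini-Hochberg adjustment (R 4.3.3, edgeR 4.0.16, limma 3.58.1, DESeq2 1.42.0, Python 3.11.15). The biological coefficient of variation was 3.78%. The fit was tested on simulated data. Alternatives were other scalings and filters, edgeR's likelihood ratio test, DESeq2, limma on log2(FPKM + 1) and log2(FPKM + 0.1), a replicate block and leaving out each library. Coordinates and exon overlaps came from GENCODE, promoters from RefSeq.

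The enzymes and the linked lists were chosen with earlier results of these data known. Linked genes were named when they passed the test and moved by 0.5 or more on the log2 scale in either direction, and Akr1b3, Slc35a2, Glb1 and Pgm3 always; some genes that the rule would name are not reported here.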

Additional observations from a re-analysis of the deposited data

How the results depend on the processing

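Of 399 values of the 7 enzymes under alternatives, 371 kept their direction and side of the threshold, 9 lost the call, 10 gained it and 9 changed sign, none of the last passing the test before. The number of enzymes called in USCs medium vs normal RGCs went from 2 to 1 with upper-quartile factors and with a filter of 1 CPM in 3 libraries. With a required absolute log2 fold change of 1 it was 0 in all 3 comparisons, and the linked genes called were 1, 1 and 4. When each library was left out in turn, the enzymes called stayed at 3 in aging vs normal RGCs, ranged from 4 to 5 in USCs medium vs aging RGCs and from 1 to 3 in USCs medium vs normal RGCs, where leaving out normal replicate 1, normal replicate 3 or medium replicate 2 each gave 1. Without scaling factors the median of all genes shifted by -0.0220, -0.0784 and -0.100 on the log2 scale in the 3 comparisons. In USCs medium vs normal RGCs, Ugp2 then stood at -0.0227 and Pgm1 at -0.0295, and limma on log2(FPKM + 1) and log2(FPKM + 0.1) gave -0.0287 and -0.0296 for Ugp2 and -0.0295 and -0.0299 for Pgm1. In aging vs normal RGCs, Glb1 stood at -0.00455 without scaling factors and at -0.00705 and -0.00738 with limma. When each library was left out in turn, values in aging vs normal RGCs ranged from -0.00925 to 0.147 for Galt and from -0.0282 to 0.0713 for Glb1. They ranged from -0.40 to 0.0529 for Galm and from -0.0825 to 0.0275 for Pgm3 in USCs medium vs normal RGCs, and from -0.0480 to 0.00158 for Slc35a2 in USCs medium vs aging RGCs. The cause of these changes was not tested.

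Libraries with the same replicate number did not deviate together (r from -0.0330 to 0.0471), so the numbers were not read as pairing. With the replicate block, 3, 5 and 2 enzymes and 30, 33 and 31 linked genes were called in the 3 comparisons, against 31, 33 and 31 linked genes without it.

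Limits are set by 3 wells per group and by 10 to 30 counts per library for Galm. A further limit is the unknown use of strand where Pgm1, Galk2, Ugp2 and Pgm3 share exon bases with genes on the other strand. For Ugp2 these are 78 bases, 2.54% of its own, shared with Gm12043, a gene without values in the expression table.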

Other observations

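The genes whose log2 CPM tracked each enzyme most closely over the 9 libraries were found by Pearson's r, given as a description without a test. The libraries fall into 3 groups, so r holds the differences between groups as well as those within them. For Galk1 these were Pfdn6 (r = 0.986), Rps15 (0.985) and Vmp1 (0.984), for Ugp2 Eprs (0.989), Snx10 (0.987) and Gps2 (0.982), and for Pgm1 Dtnb (0.985), Bok (0.984) and Ptp4a3 (0.984). Pgm2 was tracked most closely of all, by Tbrg1 (0.997), Psmd8 (0.996) and Emd (0.995), and 800 genes exceeded an r of 0.9 with it, against 300 for Galk1, 281 for Ugp2 and 200 for Pgm1. Galk2 was nearest to Phka1 (0.939), Tnfsf15 (0.932) and Lurap1l (0.931), and Galm to Stub1 (0.949), Vps18 (0.947) and Atp6v1e1 (0.937), each with 14 genes over 0.9. Galt was nearest to Tmem128 (0.902), Cbx1 (0.90) and Mcts2 (0.861).

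Genes for glycogen synthesis and breakdown draw on the same glucose 1-phosphate and UDP-glucose. Of 9 such genes, 2 rose and 2 fell in aging vs normal RGCs, beside 23.6% and 23.0% of all genes tested. With USCs medium against aging RGCs, none rose and 3 fell, beside 27.1% and 26.0% of all genes. Against normal RGCs, 1 rose and 2 fell, beside 30.6% and 29.9%. None of the 9 reached an absolute log2 fold change of 0.5 with an adjusted p under 0.05 by edgeR in any comparison. The median log2 fold changes of the 9 were 0.06, 0.0016 and -0.03.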
